A study of Homo sapiens with 15 samples.

Results

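Aminoacyl-tRNA synthetases were followed as a gene family across the 5 groups of the series. The members were 36 genes picked by symbol from a count table of 58676 genes. Of these, 20 encode cytosolic enzymes and 16 encode mitochondrial ones. GARS and KARS, the glycyl and lysyl enzymes, serve both compartments and were counted with the cytosolic genes. All libraries were made from the pancreatic cancer line PATU-8988T, an established human line. Cells received THZ1 at 100 nM for 4 h, THZ1 at 100 nM for 24 h, YKL-5-124 at 100 nM for 4 h, YKL-5-124 at 100 nM for 24 h, or 0.1% DMSO, with 3 libraries in each group. The series describes both compounds as inhibitors of CDK7, the TFIIH kinase that phosphorylates RNA polymerase II. The labels give the DMSO libraries no time, so the same 3 stood as control for 4 h and 24 h. They do not say whether replicates were separate cultures, and p-values then measure only the spread between these libraries, which may be technical.

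Most synthetases join 1 amino acid to its tRNAs, which then carry it to the ribosome. Cytosolic and mitochondrial ribosomes use largely separate sets of these enzymes, although every gene of both sets lies in the nucleus. In animal cells a group of cytosolic synthetases assembles with 3 scaffold proteins into the multi-synthetase complex, the phenylalanyl enzyme is a tetramer of an alpha and a beta chain, and the others mostly act alone. Amino acid shortage is known to raise many cytosolic synthetase genes through the transcription factor ATF4.

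Depth was 15567057 to 22869590 counts per library. Of the 36 genes, 35 passed the filter on low counts. SARS2, the mitochondrial seryl enzyme, had 64 counts over all 15 libraries and was not tested; it overlaps MRPS12, which had 86920. The synthetase genes together took 0.319% to 0.362% of the counts in THZ1 24 h libraries, 0.639% to 0.670% with THZ1 for 4 h, 0.646% to 0.664% with YKL-5-124 for 4 h, 0.556% to 0.577% with YKL-5-124 for 24 h, and 0.651% to 0.659% with DMSO. The mRNAs of ribosomal proteins took 20.8% to 23.1% of the counts in THZ1 24 h libraries, against 9.04% to 11.6% in DMSO, and TMM scaling factors were 0.532 to 0.559 there, against 1.15 to 1.27 in DMSO. Values below are on the TMM scale unless another is named. CPM are counts scaled by library size and TMM factor, and a gene is called at an adjusted p under 0.05. Less RNA per cell and fewer cells cannot be told apart in such libraries. For the cell type, 6 of 9 epithelial and ductal markers passed the filter. The epithelial keratin KRT8 averaged 1062 CPM in DMSO and EPCAM 13.1 CPM, while KRT19 had 0 counts there. Of 11 stromal, endothelial and immune markers 4 passed the filter, so this list was not wholly without counts. They were COL1A1 and 3 others that were not called at THZ1 24 h. DCN, PTPRC, CD68 and CD3E had 0 or 1 count in every DMSO library. The collagen gene COL1A1 had 10, 71 and 33 counts in THZ1 24 h libraries, against 3, 9 and 13 in DMSO, and was called higher (log2 fold change 3.51, adjusted p = 0.000617); its part in the results was not tested. Of 7 markers of acinar and islet cells, 0 passed the filter. No counts were found in any library for PRSS1, CPA1, CELA3A, INS, GCG and SST, and the remaining marker was CTRB1.

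In DMSO, cytosolic synthetase transcripts stood at a median level of 162 TPM, a count per length, and mitochondrial ones at 33.1 TPM. TARS, the threonyl enzyme, was the most abundant at 557 ± 12.5 TPM (SD, n = 3), followed by KARS at 485 ± 14.0 TPM and AARS, the alanyl enzyme, at 329 ± 40.1 TPM. The libraries of TARS and KARS did not overlap, nor did those of KARS and AARS, whereas AARS overlapped with IARS, the isoleucyl enzyme, at 287 ± 19.3 TPM. Among mitochondrial members IARS2 was highest at 263 ± 14.0 TPM, a level that overlapped with that of IARS. YARS2, the mitochondrial tyrosyl enzyme, followed at 169 ± 23.4 TPM. With RARS2 at 90.2 TPM and NARS2 at 60.01 TPM, these were the 4 mitochondrial members inside the cytosolic range of 52.9 to 557 TPM. PARS2, the mitochondrial prolyl enzyme, had 7.02 ± 0.797 TPM and stood above SARS2 alone. These levels divide by the full exonic length of a gene, which can far exceed its longest coding transcript. The 2 lengths were 5718 and 4314 bases for TARS and 4065 and 2421 for KARS. They were 10037 and 2758 bases for CARS, which set the low end of the cytosolic range. The order and the range may differ on transcript length, which was not tested.

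The promoters were read from RefSeq windows of the GRCh38.p14 assembly, from 250 bases before each start to 50 after it. Such a window was at hand for 30 of the 36 members. The composite motif TGATGNAA, known to be bound by ATF4 with a C/EBP partner, was searched on both strands. It occurred in 7 of 16 cytosolic members, or 43.8%, and in 1 of 14 mitochondrial members, or 7.14%, against 4.46% of the 27305 RefSeq genes with a window. The 8 matches are shown because ATF4 is the known common regulator of cytosolic synthetase genes. They were chosen by the motif, after values had been seen. Each is written 5′ to 3′ on the strand of its gene with 10 bases on either side, and the capitals mark the motif in either orientation.
AARS, chr16:70289676-70289703, minus strand: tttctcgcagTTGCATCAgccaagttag
CARS, chr11:3057408-3057435, minus strand: ggggcggcggTTGCATCAgattctagga
GARS, chr7:30594835-30594862, plus strand: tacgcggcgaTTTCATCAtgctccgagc
IARS, chr9:92293693-92293720, minus strand: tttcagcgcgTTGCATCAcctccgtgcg
MARS, chr12:57488054-57488081, plus strand: ccggttccggTTGCATCAgcgagggatt
NARS, chr18:57621805-57621832, minus strand: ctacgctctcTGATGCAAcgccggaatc
TARS, chr5:33440957-33440984, plus strand: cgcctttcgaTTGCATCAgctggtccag
YARS2, chr12:32756077-32756104, minus strand: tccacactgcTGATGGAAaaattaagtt
In CARS, GARS, IARS and MARS the first base of the match lay 2 to 33 bases before the start, and it was transcribed base 15 in NARS and base 3 in TARS. In AARS it lay 187 bases and in YARS2 197 bases before the start. CARS, GARS and TARS had 2 windows each, of which 1 held the match, and their positions count from the transcription start of that window. A match describes these letters, and binding was not measured.

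HARS and HARS2, the cytosolic and mitochondrial histidyl genes, are transcribed away from each other on chromosome 5. Their RefSeq starts are separated by 84 bases, chr5:140691371-140691454, printed on the plus strand because the pair later differed in response.
HARS and HARS2: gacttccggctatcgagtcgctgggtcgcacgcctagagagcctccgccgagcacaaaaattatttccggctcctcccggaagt
This stretch was 59.5% G and C and held no match to the motif. HARS is read leftward from it and HARS2 rightward.

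After 4 h of THZ1, more synthetase genes rose than fell on the TMM scale, and most of the rises were cytosolic. Relative to DMSO, 10 cytosolic members were called higher and 1 lower, and 3 mitochondrial members were called higher and 4 lower. Among the 10, the valyl gene VARS overlapped with DMSO (adjusted p = 0.0304). Its call was lost without THZ1 4 h replicate 2 or 3 or DMSO replicate 1 or 3 (adjusted p = 0.0779 to 0.123). Over all 14461 genes tested, 16.9% were called higher and 25.1% lower. The median log2 fold change was 0.28 for the cytosolic members, −0.08 for the mitochondrial members and 0.00 for all genes. Under scaling to library totals only LARS and IARS2 were still called higher, against 2 cytosolic and 4 mitochondrial members called lower. Under a ribosomal protein mRNA reference none was called higher and 16 were called lower, so there too falls outnumbered rises.

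The cytosolic rises at 4 h were moderate. EPRS, which joins both glutamate and proline to their tRNAs, had 393, 493 and 429 CPM in THZ1 4 h libraries, against 276, 309 and 290 CPM in DMSO. The groups did not overlap, and its log2 fold change was 0.59 ± 0.13 (SE; adjusted p = 0.00228). LARS, the leucyl enzyme, which is also a leucine sensor upstream of mTORC1, had 341, 365 and 367 CPM in THZ1 4 h libraries, against 239.8, 239.6 and 243 CPM in DMSO. It rose by 0.57 ± 0.08 (log2, SE; adjusted p = 3.61e-05), with each treated library above each control. QARS, the glutaminyl enzyme, rose by 0.49 ± 0.10 (adjusted p = 0.00112) under TMM but was −0.02 against ribosomal protein mRNAs. RARS, the arginyl enzyme, was the 1 cytosolic member called lower, at 116, 94.5 and 102 CPM in THZ1 4 h libraries and 152, 124 and 140 CPM in DMSO. These groups did not overlap, the log2 fold change was −0.42 ± 0.12 (adjusted p = 0.0144), and the call was lost without THZ1 4 h replicate 2 (adjusted p = 0.0620) or DMSO replicate 1 (adjusted p = 0.0679), and under RLE scaling (adjusted p = 0.0511).

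The largest changes at 4 h were in mitochondrial members. PARS2 had 5, 0 and 1 raw counts in THZ1 4 h libraries, against 92, 78 and 106 in DMSO. Its summed count per effective library size was 0.0255 times that in DMSO (95% interval from an exact binomial, counting error only, 0.00929 to 0.0563; n = 3 libraries a group), and the fitted log2 fold change was −5.22 ± 0.57 (SE; adjusted p = 3.12e-06). MARS2, the mitochondrial methionyl enzyme, had 1.90, 2.12 and 2.001 CPM in THZ1 4 h libraries, against 29.2, 24.0 and 25.7 CPM in DMSO. The treated libraries lay close together and far below the controls, at a log2 fold change of −3.71 ± 0.15 (adjusted p = 2.78e-10). HARS2 had 16.8, 11.1 and 13.9 CPM in THZ1 4 h libraries and 26.1, 25.0 and 27.6 CPM in DMSO. It fell by 0.91 ± 0.21 on the log2 scale (adjusted p = 0.00247), whereas HARS, across the shared 84-base stretch, had a log2 fold change of 0.10 ± 0.13 (adjusted p = 0.571). The mitochondrial rises were small, at 0.52 ± 0.09 for IARS2, 0.36 ± 0.11 for the cysteinyl CARS2 and 0.36 ± 0.12 for the asparaginyl NARS2 (log2, SE; adjusted p = 0.000420, 0.0175 and 0.0222), and against ribosomal protein mRNAs CARS2 was −0.14 and NARS2 −0.16. Without DMSO replicate 2 the calls of CARS2 (adjusted p = 0.0804) and NARS2 (adjusted p = 0.0981) were lost, and NARS2 also lost its call without THZ1 4 h replicate 1. YARS2 was called lower at −0.75 ± 0.21 (adjusted p = 0.0115), but its libraries overlapped with DMSO and the call was lost without THZ1 4 h replicate 2 (adjusted p = 0.0538). HARS2, MARS2, PARS2 and YARS2 were called lower under each of the 4 scalings and in DESeq2.

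**Figure D1:**
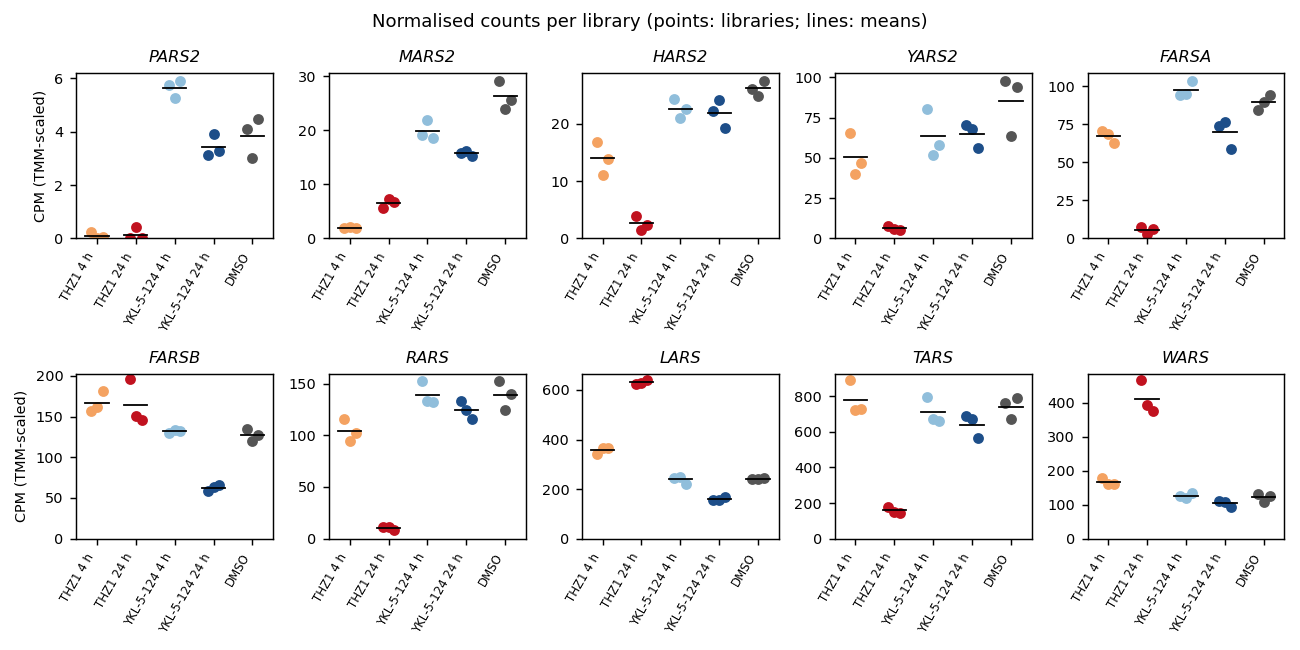
Normalised counts (CPM after TMM scaling, vertical axes from 0) of 10 synthetase genes in every library; points are libraries, horizontal lines are group means, and groups run THZ1 4 h, THZ1 24 h, YKL-5-124 4 h, YKL-5-124 24 h and DMSO from left to right. PARS2 and MARS2 were already near 0 after 4 h of THZ1, and FARSA, RARS and TARS were far below DMSO after 24 h of THZ1; WARS and LARS, higher there under TMM, were lower against ribosomal protein mRNAs.

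By 24 h of THZ1, nearly every synthetase gene had changed on the TMM scale, in both directions. Among cytosolic members 9 were called higher and 11 lower, and among mitochondrial members 2 higher and 10 lower, while 32.3% of all genes tested were called higher and 44% lower. The 11 higher calls among 35 members are a share close to that background. The median log2 fold change was −0.43 for cytosolic members, −1.38 for mitochondrial members and −0.37 for all genes. The rises depend on the scaling: WARS and LARS alone were called higher under library totals, and under the ribosomal protein mRNA reference all 35 members were called lower. Of the 21 falls, 17 were called under each of the 4 scalings and in DESeq2; the exceptions were MARS, QARS, SARS and YARS.

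The cytosolic falls at 24 h were steep in a few genes. FARSA, the alpha chain of the phenylalanyl enzyme, had 7.37, 2.86 and 5.84 CPM in THZ1 24 h libraries, against 84.5, 89.5 and 94.1 CPM in DMSO. It was 16.8-fold lower, a log2 fold change of −4.07 ± 0.23 (SE; adjusted p = 2.71e-10), with no overlap of the groups. RARS had 10.99, 11.3 and 8.24 CPM in THZ1 24 h libraries, against 152, 124 and 140 CPM in DMSO. This was a 13.6-fold lower level, −3.77 ± 0.15 on the log2 scale (adjusted p = 9.66e-12). TARS, the synthetase transcript with the highest TPM in DMSO, had 178, 152 and 147 CPM in THZ1 24 h libraries and 762, 671 and 790.0 CPM in DMSO. Its groups were also far apart, at −2.22 ± 0.13 (adjusted p = 4.37e-10). GARS at −1.95 ± 0.18, AARS at −1.25 ± 0.10 and HARS at −1.24 ± 0.13 fell less (log2, SE; adjusted p = 6.65e-08, 2.24e-08 and 4.68e-07). The call for QARS, at −0.29 ± 0.10, was lost without THZ1 24 h replicate 2 (adjusted p = 0.0861), THZ1 24 h replicate 3 (adjusted p = 0.108) or DMSO replicate 1, and its log2 fold change under RLE scaling was 0.03.

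WARS, the tryptophanyl enzyme, which is known as an interferon-induced gene, rose most under TMM. It had 468, 394 and 377 CPM in THZ1 24 h libraries, against 133, 107 and 125 CPM in DMSO, a log2 fold change of 1.77 ± 0.11 (SE; adjusted p = 1.51e-09). Every treated library lay above every control, yet the log2 fold change was −0.41 against ribosomal protein mRNAs. LARS followed, with 623, 629.9 and 642 CPM in THZ1 24 h libraries, against 239.8, 239.6 and 243 CPM in DMSO, at 1.39 ± 0.08 (adjusted p = 4.01e-10) under TMM and −0.80 against ribosomal protein mRNAs. DARS, the aspartyl enzyme, stood at 1.34 ± 0.13 under TMM (adjusted p = 2.10e-07) and at −0.83 against ribosomal protein mRNAs. The other cytosolic members called higher under TMM were VARS, KARS, NARS, EPRS, IARS and FARSB, between 1.28 and 0.37, and each was lower against ribosomal protein mRNAs.

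Of the 15 tested mitochondrial members, 10 were called lower at 24 h. PARS2 had 0, 4 and 0 raw counts in THZ1 24 h libraries, against 92, 78 and 106 in DMSO, and its summed count per effective library size was 0.0378 times that in DMSO (95% interval 0.0102 to 0.0978). Its fitted log2 fold change of −4.69 ± 0.64 (SE; adjusted p = 7.10e-06) rests on these few counts. YARS2 had 7.73, 5.62 and 5.32 CPM in THZ1 24 h libraries and 98.0, 63.4 and 93.9 CPM in DMSO, at −3.78 ± 0.26 (adjusted p = 2.33e-09). TARS2, the mitochondrial threonyl enzyme, had 3.62, 3.06 and 1.25 CPM in THZ1 24 h libraries and 31.6, 30.7 and 31.2 CPM in DMSO, at −3.57 ± 0.24 (adjusted p = 2.40e-09). In all 3 genes the groups were separate. HARS2 had 3.99, 1.53 and 2.30 CPM in THZ1 24 h libraries, against 26.1, 25.0 and 27.6 CPM in DMSO, and fell by 3.35 ± 0.25 on the log2 scale (adjusted p = 7.42e-09). Its neighbour HARS stood at −1.24 ± 0.13 against the same DMSO libraries. MARS2 stood at 5.56, 7.25 and 6.68 CPM in THZ1 24 h libraries, above its 4 h values but still far below DMSO, at −2.01 ± 0.14 (adjusted p = 4.18e-09). WARS2, AARS2, FARS2, LARS2 and EARS2 fell by between 2.04 and 0.84.

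Only RARS2 and CARS2 among the mitochondrial members were called higher at 24 h, and both were negative under library totals and under the ribosomal protein mRNA reference. RARS2, the mitochondrial arginyl enzyme, had 115, 114 and 111 CPM in THZ1 24 h libraries, against 59.2, 44.0 and 57.8 CPM in DMSO, at a log2 fold change of 1.08 ± 0.16 (SE; adjusted p = 1.69e-05). CARS2 had 153, 124 and 132 CPM in THZ1 24 h libraries, against 78.0, 62.3 and 74.8 CPM in DMSO, at 0.92 ± 0.11 (adjusted p = 2.25e-06). Both separated fully from the controls under TMM. IARS2, NARS2 and VARS2 were not called, at 0.21, −0.22 and −0.24.

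**Figure D2:**
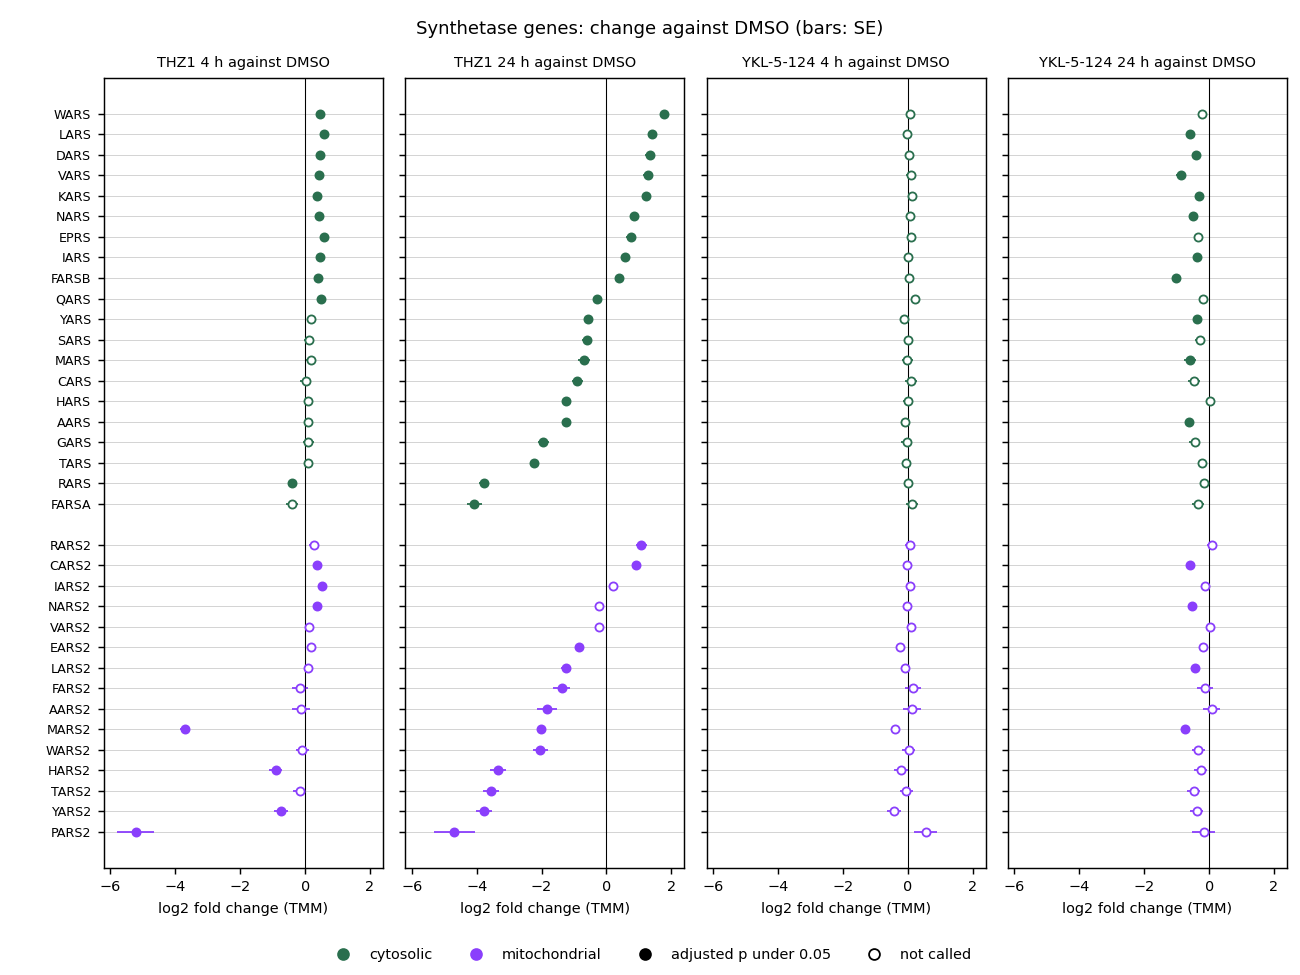
Log2 fold change against DMSO (horizontal axes, TMM scaling, bars are standard errors) of the 35 tested synthetase genes, in 1 panel for each treated group; green points are cytosolic, violet points mitochondrial, and filled points have an adjusted p under 0.05. Under TMM, THZ1 24 h spread the members from −4.69 (PARS2) to 1.77 (WARS), YKL-5-124 4 h called none, and the 14 calls of YKL-5-124 24 h were all falls; under the ribosomal protein mRNA reference the rises of THZ1 24 h became falls.

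Ratios of 2 transcripts counted in the same library do not depend on how libraries are scaled. FARSA and FARSB encode the alpha and beta chains that make up 1 enzyme. Per exonic length they were close to even in DMSO, with FARSA:FARSB ratios of 0.871, 1.03 and 1.02. In THZ1 24 h libraries the ratios were 0.0520, 0.0261 and 0.0553, and in THZ1 4 h libraries 0.625, 0.585 and 0.476. With YKL-5-124 the pair lay on the other side of DMSO, at 1.74, 1.68 and 1.25 in YKL-5-124 24 h libraries, while the ratios of 0.999, 0.986 and 1.09 in YKL-5-124 4 h libraries overlapped with DMSO. Under TMM the beta chain FARSB was called higher, at 196, 151 and 146 CPM in THZ1 24 h libraries, against 134, 119.7 and 128 CPM in DMSO (log2 fold change 0.37 ± 0.11, adjusted p = 0.00713), but it was −1.82 against ribosomal protein mRNAs.

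The multi-synthetase complex showed the same unevenness. It holds 8 of the enzymes, of which DARS, EPRS, IARS, KARS and LARS were called higher and MARS, QARS and RARS lower in THZ1 24 h libraries, on the TMM scale. The median log2 fold change was 0.65 for these 8 and −0.75 for the 12 other cytosolic genes, of which 4 were called higher and 8 lower. At 4 h of THZ1, 6 of the 8 were called higher and 1 lower, against 4 and 0 of the 12 others; under library totals LARS alone of the 20 cytosolic genes was called higher. Over all genes, 16.9% were called higher and 25.1% lower at 4 h, and 32.3% and 44% at 24 h. The RARS:LARS ratio per length was 0.0419, 0.0427 and 0.0305 in THZ1 24 h libraries, 0.807, 0.615 and 0.659 in THZ1 4 h libraries, and 1.51, 1.23 and 1.36 in DMSO. Both encode enzymes of the complex, and their ratio was separate from DMSO at both times. Of the 3 scaffold proteins, AIMP1 was called higher in THZ1 24 h libraries at 1.56 ± 0.13, whereas AIMP2 at −2.90 ± 0.20 and EEF1E1 at −1.75 ± 0.23 were called lower (log2, SE; adjusted p = 2.13e-08, 3.71e-09 and 4.09e-06). AIMP1 had 225, 198 and 189 CPM in THZ1 24 h libraries, against 75.6, 60.6 and 71.3 CPM in DMSO, and AIMP2 had 9.90, 6.74 and 5.95 CPM in THZ1 24 h libraries, against 64.1, 45.8 and 58.5 CPM in DMSO. After YKL-5-124 for 24 h both fell alike, by 0.64 ± 0.13 for AIMP1 and 0.63 ± 0.18 for AIMP2 on the log2 scale (adjusted p = 0.00233 and 0.0214).

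The cytosolic and mitochondrial enzymes for 1 amino acid were compared in the same way. Ratios were taken for 14 such pairs, with EPRS set against both EARS2 and PARS2. The phenylalanine enzymes, whose cytosolic form has 2 chains, and the serine enzymes, whose mitochondrial gene SARS2 had few counts, were not among them. At THZ1 24 h the log2 fold changes of the phenylalanine genes were −4.07 for FARSA, 0.37 for FARSB and −1.38 for the mitochondrial FARS2; the difference between FARSA and FARS2 was not tested. In THZ1 24 h libraries the cytosolic to mitochondrial ratio lay above every DMSO library for 11 pairs and below for 2, and in THZ1 4 h libraries for 8 and 2. Single genes are another measure than ratios, and the share of all genes called in either direction was 76.2% at THZ1 24 h and 42% at THZ1 4 h. After YKL-5-124 the ratio lay above for 3 pairs and below for 1 at 4 h, and for 2 and 2 at 24 h. There 0.519% and 21.6% of all genes were called. These shares count genes by adjusted p, whereas pairs were counted by lack of overlap alone, a looser rule. They are therefore no background for the pair counts, and the share of other gene pairs without overlap was not tested. Among the pairs that lay above DMSO and had no library at 0 counts, tryptophan shifted furthest at 24 h, where the WARS:WARS2 ratio was 60.1, 111 and 84.2 in THZ1 24 h libraries, against 5.75, 5.26 and 5.96 in DMSO. For tyrosine, YARS:YARS2 was 4.70, 5.28 and 5.62 in THZ1 24 h libraries, against 0.488, 0.709 and 0.538 in DMSO. For leucine, LARS:LARS2 was 16.6, 18.1 and 20.4 in THZ1 24 h libraries, against 2.98, 2.61 and 3.22 in DMSO. In all 3 pairs the treated libraries lay far outside the control range.

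With EPRS:PARS2 left aside because PARS2 had a library at 0 counts, the methionine pair moved furthest at 4 h, with MARS:MARS2 ratios of 75.6, 58.4 and 57.3 in THZ1 4 h libraries, 18.0, 7.58 and 8.50 in THZ1 24 h libraries, and 4.05, 4.36 and 4.57 in DMSO. HARS:HARS2, whose genes share the 84-base stretch printed above, was 3.10, 4.38 and 3.17 in THZ1 4 h libraries, 5.80, 11.6 and 7.18 in THZ1 24 h libraries, and 1.82, 1.63 and 1.74 in DMSO. Both pairs stood above DMSO at both times of THZ1. This side of DMSO was not particular to THZ1. With the other compound HARS:HARS2 also lay above every DMSO library. It was 1.97, 1.97 and 2.03 at 4 h and 2.17, 2.02 and 2.14 at 24 h. MARS:MARS2 with that compound lay above DMSO at 4 h, at 6.16, 4.75 and 6.17, and overlapped with DMSO at 24 h. With THZ1 the arginine and cysteine pairs ran the other way. RARS:RARS2 was 0.0713, 0.0740 and 0.0553 in THZ1 24 h libraries, against 1.92, 2.10 and 1.80 in DMSO, and CARS:CARS2 was 0.596, 0.487 and 0.427 in THZ1 24 h libraries, against 1.63, 1.93 and 1.84 in DMSO. AARS:AARS2 overlapped with DMSO in all 4 treated groups.

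**Figure D3:**
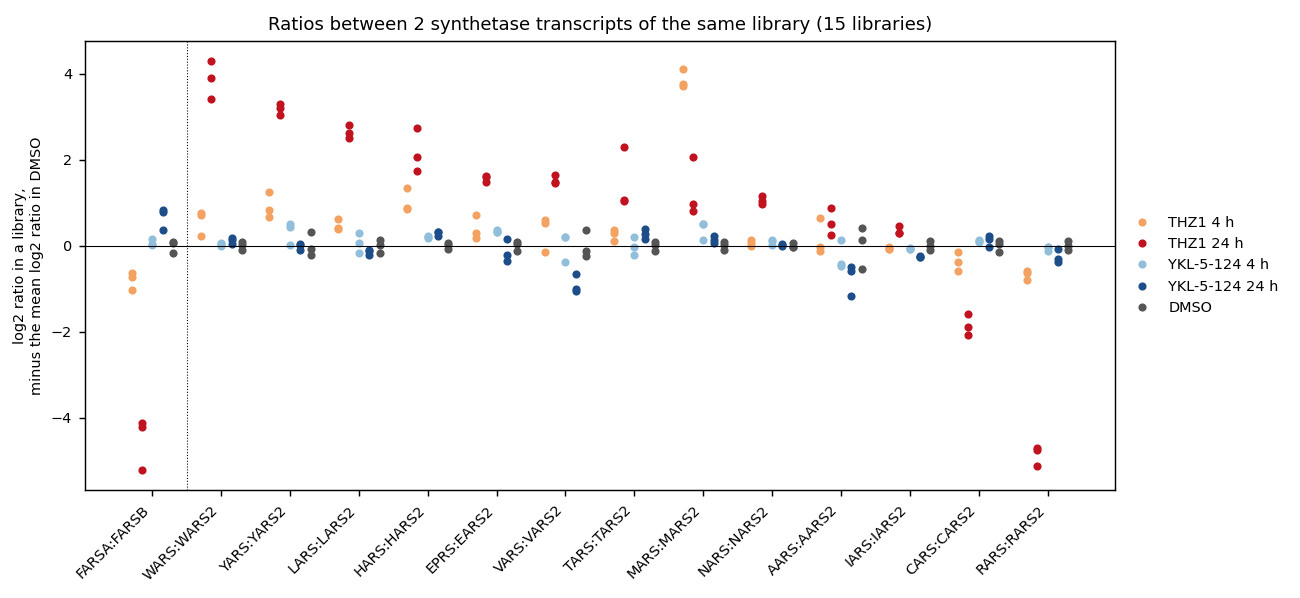
Log2 of the ratio per length of 2 transcripts within each library, minus its DMSO mean (vertical axis), for FARSA:FARSB and 13 cytosolic to mitochondrial pairs (horizontal axis); colours mark the treated groups and DMSO, and each point is a library. THZ1 24 h points lie far below 0 for FARSA:FARSB and RARS:RARS2 and far above it for WARS:WARS2; EPRS:PARS2 is not drawn because PARS2 had libraries with 0 counts.

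YKL-5-124 left the family without a call at 4 h. None of the 35 members was called in edgeR's quasi-likelihood test or in DESeq2, 1 had an unadjusted p under 0.05, and 0.0553% of all genes were called higher and 0.463% lower. That member was MARS2, with 19.2, 22.0 and 18.6 CPM in YKL-5-124 4 h libraries, against 29.2, 24.0 and 25.7 CPM in DMSO. Its log2 fold change was −0.40 with a 95% interval of −0.68 to −0.12 (adjusted p = 0.227). PARS2, which was almost lost after 4 h of THZ1, had 5.77, 5.28 and 5.90 CPM in YKL-5-124 4 h libraries, against 4.09, 3.02 and 4.47 CPM in DMSO.

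At 24 h, YKL-5-124 gave 14 calls among the members, all of them falls on the TMM scale. They were 10 cytosolic and 4 mitochondrial genes, while 8.92% of all genes were called higher, 12.7% lower and 21.6% in either direction. The median log2 fold change was −0.38 for cytosolic members, −0.26 for mitochondrial members and −0.04 for all genes. Scaling bears on these calls: 9 of the falls were called under library totals, and under the ribosomal protein mRNA reference no member was called lower and 9 were called higher.

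FARSB had 59.1, 63.2 and 65.6 CPM in YKL-5-124 24 h libraries, against 134, 119.7 and 128 CPM in DMSO. It was 2.03-fold lower, at a log2 fold change of −1.02 ± 0.11 (SE; adjusted p = 2.57e-05), and the groups were well apart. VARS, the valyl enzyme, had 67.2, 71.6 and 76.5 CPM in YKL-5-124 24 h libraries and 112, 154 and 128 CPM in DMSO, at −0.87 ± 0.15 (adjusted p = 0.00109). AARS had 220.1, 239.7 and 205 CPM in YKL-5-124 24 h libraries and 331, 351 and 345 CPM in DMSO, at −0.63 ± 0.10 (adjusted p = 0.000561). All 3 cytosolic genes were separate from the controls. MARS2 at −0.74 ± 0.13, CARS2 at −0.60 ± 0.11 and NARS2 at −0.53 ± 0.12 led the mitochondrial falls (adjusted p = 0.00111, 0.00164 and 0.00479), and NARS2 was 0.07 against ribosomal protein mRNAs. The calls of DARS, KARS, MARS, YARS and LARS2 were each lost when 1 of several libraries was left out. FARSA, at −0.35 ± 0.18 (adjusted p = 0.196), and RARS, at −0.16 ± 0.12 (adjusted p = 0.400), which fell most of the cytosolic genes after 24 h of THZ1, were not called.

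The compounds were then set against each other at the same dose and time, in 35 tests at each time within fits over all genes. At 4 h, 8 cytosolic members were called higher with THZ1 and 2 lower, and 4 mitochondrial members higher and 3 lower, while 11.4% of all genes were called higher and 21.9% lower. Of these 12 higher calls, 1 was made under library totals and 0 under the ribosomal protein mRNA reference, 6 higher calls were made without YKL-5-124 4 h replicate 2, and 10 of the 17 calls in either direction were lost without some library. The rises were modest: LARS at 0.58 ± 0.08, EPRS at 0.49 ± 0.13 and IARS at 0.44 ± 0.09 among cytosolic genes (log2, SE; adjusted p = 3.74e-05, 0.0103 and 0.00170). IARS2 at 0.44 ± 0.09, EARS2 at 0.41 ± 0.12 and NARS2 at 0.39 ± 0.12 led the mitochondrial rises (adjusted p = 0.00216, 0.0123 and 0.0177), but EARS2 and NARS2 were −0.02 and −0.05 against ribosomal protein mRNAs, and the NARS2 call was lost without YKL-5-124 4 h replicate 3 (adjusted p = 0.0771). PARS2 at −5.77 ± 0.56, MARS2 at −3.31 ± 0.15 and HARS2 at −0.69 ± 0.21 were lower with THZ1 (adjusted p = 1.22e-06, 1.29e-09 and 0.0170), as were FARSA at −0.53 ± 0.19 and RARS at −0.42 ± 0.12 (adjusted p = 0.0375 and 0.0175). The FARSA call was lost without any one of 5 libraries, the RARS call without THZ1 4 h replicate 2 or YKL-5-124 4 h replicate 1, and the HARS2 call without THZ1 4 h replicate 2 or 3. For 18 members no difference was called, among them TARS at 0.14 (95% interval −0.12 to 0.40) and VARS2 at 0.04 (−0.22 to 0.29).

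At 24 h the compounds differed in nearly every member on the TMM scale. THZ1 libraries were higher for 9 cytosolic and 4 mitochondrial members and lower for 7 and 11, while 31.8% of all genes were called higher, 44.1% lower and 75.9% in either direction. VARS stood at 2.15 ± 0.16, WARS at 1.99 ± 0.12 and LARS at 1.98 ± 0.08 (log2, SE; adjusted p = 6.81e-09, 4.67e-10 and 1.63e-11), but at −0.63, −0.78 and −0.80 against ribosomal protein mRNAs. CARS2 at 1.53 ± 0.12, RARS2 at 0.98 ± 0.16 and IARS2 at 0.34 ± 0.09 were the leading mitochondrial rises under TMM and were likewise negative against ribosomal protein mRNAs. FARSA at −3.72 ± 0.22, RARS at −3.61 ± 0.14 and TARS at −2.01 ± 0.13 were far lower with THZ1 (adjusted p = 6.65e-10, 1.28e-11 and 1.20e-09). PARS2 at −4.52 ± 0.65, YARS2 at −3.39 ± 0.25 and HARS2, 95% interval −3.63 to −2.56, were the lowest mitochondrial ones. The 4 members without a call were MARS at −0.10 (95% interval −0.48 to 0.29), QARS at −0.09 (−0.31 to 0.12), YARS at −0.20 (−0.44 to 0.04) and SARS at −0.32 (−0.63 to −0.01).

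Whether the shift between 4 h and 24 h differed by compound was tested as an interaction (THZ1 24 h minus 4 h, less the same for YKL-5-124). It was positive for 9 cytosolic and 3 mitochondrial members and negative for 8 and 8, while 26.6% of all genes were called positive, 31% negative and 57.6% in either direction. RARS at −3.19 ± 0.19, FARSA at −3.19 ± 0.29 and YARS2 at −3.07 ± 0.33 were the most negative (log2, SE; adjusted p = 3.85e-09, 2.05e-07 and 1.24e-06). RARS, for example, had 10.99, 11.3 and 8.24 CPM in THZ1 24 h libraries and 116, 94.5 and 102 CPM in THZ1 4 h libraries, whereas it had 133, 124 and 116 CPM in YKL-5-124 24 h libraries and 152, 133 and 132 CPM in YKL-5-124 4 h libraries. MARS2 was positive at 2.03 ± 0.20 (adjusted p = 6.63e-07), its lowest THZ1 values being those of 4 h, but it was −0.30 against ribosomal protein mRNAs. VARS at 1.82 ± 0.22 and WARS at 1.59 ± 0.16 were positive under TMM and −0.56 and −0.75 against ribosomal protein mRNAs. PARS2 was not called (95% interval −1.27 to 3.78).

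ATF4 is the known activator of many cytosolic synthetase genes, and its own transcript had 172, 147 and 152 CPM in THZ1 24 h libraries and 255, 169.7 and 163 CPM in THZ1 4 h libraries, against 417, 313 and 409 CPM in DMSO. It was lower at both times, at −0.96 ± 0.21 at 4 h and −1.27 ± 0.21 at 24 h (log2 fold change, SE; adjusted p = 0.00178 and 4.85e-05), and at −0.78 ± 0.21 after YKL-5-124 for 24 h (adjusted p = 0.0147). Of 20 tested genes on a list of known ATF4 targets, 4 were called higher and 8 lower at THZ1 4 h, 7 and 11 at THZ1 24 h, and 0 and 8 at YKL-5-124 24 h. The shares over all genes were 16.9% and 25.1%, 32.3% and 44%, and 8.92% and 12.7%, in the same order. CHAC1, which degrades glutathione, stood at −5.32 at THZ1 4 h, −2.76 at THZ1 24 h and −1.88 at YKL-5-124 24 h. The serine synthesis enzyme PHGDH was at 2.02 at THZ1 24 h under TMM. Among cytosolic synthetase genes, the 7 with the promoter motif printed above had a median log2 fold change of −0.89 at THZ1 24 h, with 2 called higher and 5 lower, and the 9 whose window lacked it had a median of −0.29, with 4 called higher and 5 lower. DARS, LARS, VARS and YARS had no window and are in neither set. They stood at 1.34, 1.39, 1.28 and −0.58 at THZ1 24 h under TMM. The difference between the 7 and the 9 was not tested, and 32.3% of all genes were called higher and 44% lower.

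Partner genes of tRNA charging moved unevenly too. The 5 tested cytosolic elongation factors were all called higher at THZ1 24 h under TMM, at a median of 1.71, with EEF1B2 at 2.02 and EIF5A at 2.001. Of 18 genes of tRNA maturation and export, 4 were called higher and 13 lower, against 32.3% and 44% of all genes. TRMT10C, a subunit of the mitochondrial RNase P, fell to a log2 fold change of −4.94 ± 0.26 at THZ1 24 h (adjusted p = 1.50e-10) and was already at −3.23 ± 0.21 at THZ1 4 h (adjusted p = 1.65e-08). HSD17B10, another subunit of that enzyme, was at 2.13 ± 0.20 at THZ1 24 h under TMM. QRSL1 and GATC, subunits of the amidotransferase that makes mitochondrial glutaminyl-tRNA, were at −1.70 and −1.29 at THZ1 24 h. Of 9 mitochondrial translation factors, 4 were called higher and 4 lower there, with the elongation factor TUFM at 2.01 and its exchange factor TSFM at −2.25. In YKL-5-124 4 h libraries no gene of these lists was called.

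The sign of every TMM rise at THZ1 24 h depended on the scaling. Relative to TMM, library totals shifted the log2 fold changes of genes by a median of −0.26 at THZ1 4 h, −1.13 at THZ1 24 h and 0.15 at YKL-5-124 24 h. The median shift was −0.51, −2.18 and 0.59 with the ribosomal protein mRNA reference, and 0.32 at THZ1 24 h with RLE factors. Genes outside the synthetase family were compared under TMM, and a rise smaller than these shifts would not keep its sign. Ribosomal protein mRNAs themselves took a different share of the counts in these groups, and whether they are a fair reference was not tested. With the median of all genes at −0.37 under TMM, WARS, LARS and DARS stood above it and FARSA, RARS and PARS2 below it.

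**Figure D4:**
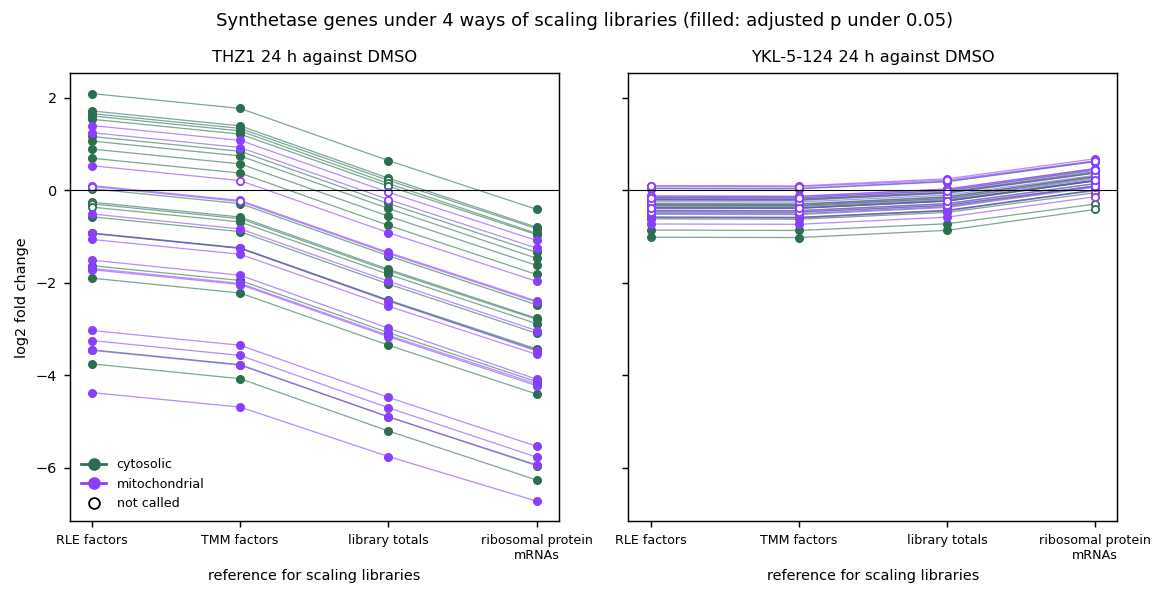
Log2 fold change against DMSO of the tested synthetase genes under 4 scalings (RLE, TMM, library totals and ribosomal protein mRNAs), for THZ1 24 h and YKL-5-124 24 h; each line is a gene. At THZ1 24 h, 11 members were called higher under TMM, 2 under library totals and none under ribosomal protein mRNAs, whereas 17 of the 21 falls were called under all 4.

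Gene structure was set beside the responses as a description. MARS2 has 1 exon, PARS2 has 2 and YARS2 has 5, whereas HARS2 has 13, FARSA 14, RARS 15 and TARS2 18. All of these were called lower at THZ1 24 h. Across the 35 tested members, Spearman's rho between exon number and log2 fold change was 0.53 at THZ1 4 h and 0.41 at THZ1 24 h, and between the DMSO level in CPM and log2 fold change it was 0.56 and 0.41. In the same order, rho was 0.45 and 0.43 for exonic length and 0.40 and 0.38 for the span of the gene. The genes share libraries and are not replicates, and exon number, length, span and level were not separated. Of the 36 members, 25 overlap another gene with counts and 11 overlap one with over 1000 counts, among them HARS2, YARS2, KARS, WARS and EARS2. No source used here gives the strand setting of the authors' counting, so reads of such overlapping genes cannot be told apart. In the annotation of the files HARS2 begins inside HARS on the other strand; whether this affects the counts of either was not tested.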

How the data were processed

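RNA-seq reads of 15 PATU-8988T libraries were counted per gene, and the authors deposited raw counts for 58676 genes. The tools named, per the submitters' processing notes, are featureCounts 1.5.0-p3 and STAR 2.6.1d, with GRCh38 as the build and DESeq2 1.24.0 also listed. Of these genes, 14461 passed filterByExpr (minimum count 10, minimum total 15) and held 99.9% of the counts. edgeR 4.0.16 in R 4.3.3 fitted its quasi-likelihood model to all 15 libraries by group, with TMM factors and Benjamini-Hochberg adjustment over all genes tested; every adjusted p is from this test unless DESeq2 1.42.0 is named. The code was tested on simulated data in which a small set of genes changed, in THZ1 4 h alone. Such data do not test the choice of scaling at THZ1 24 h. TPM were computed from counts and exonic length. Total counts limit precision, and intervals on counts cover counting error only. Alternatives were library totals, RLE factors, 86 ribosomal protein mRNAs as reference, DESeq2, no low-count filter, the compared groups alone, a replicate block, a length slope covariate and leaving out each library. Members and lists were chosen with earlier results of these data known. In each comparison the text names up to 3 called rises and 3 called falls per class with a mean of at least 1 CPM, and up to 2 per direction in other lists; other genes are named for contrast or were chosen after their values were seen. Same-numbered libraries had correlations of −0.47 to 0.53, so the numbers were not taken to pair them. Within groups, no library pair agreed within counting noise.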

Additional observations from a re-analysis of the deposited data

Results flagged for a closer look

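Whether the change between 4 h and 24 h differed between THZ1 and YKL-5-124 was tested by the difference itself, edgeR's quasi-likelihood interaction. Of the 35 tested members, 12 were called positive and 16 negative on the TMM scale, while 26.6% of all genes were called positive and 31% negative. From these calls 6 genes are listed here. The log2 difference was 2.03 for MARS2, 1.82 for VARS and 1.59 for WARS, all on the TMM scale and all negative against ribosomal protein mRNAs. It was −3.19 for RARS, −3.19 for FARSA and −3.07 for YARS2. These are the 3 largest called values in each direction, chosen for their size.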

How the results depend on the processing

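Scaling moved the counts of called members most. Under library totals the members called higher numbered 2 at THZ1 4 h, 2 at THZ1 24 h, 1 and 6 for THZ1 against YKL-5-124 at 4 h and 24 h, and 4 for the interaction, and 9 were called lower at YKL-5-124 24 h. Under the ribosomal protein mRNA reference 0 were called higher in these 5 comparisons, 9 were called higher and 0 lower at YKL-5-124 24 h, and the lower calls were 16 at THZ1 4 h, 35 at THZ1 24 h, 11 and 34 between compounds at 4 h and 24 h, and 32 for the interaction. With RLE factors the compounds gave 3 lower calls at 4 h, and without a low-count filter 6 higher ones. The length slope covariate gave 2 lower calls at YKL-5-124 4 h and 23 at YKL-5-124 24 h. The cause of these shifts beyond the scaling itself was not tested. The cytosolic minus mitochondrial median at YKL-5-124 24 h was −0.13, and −0.090 without the filter. Values that changed sign against ribosomal protein mRNAs were, at THZ1 4 h, QARS −0.017, CARS2 −0.14 and NARS2 −0.16; at THZ1 24 h, WARS −0.41, LARS −0.80, DARS −0.83, RARS2 −1.08 and CARS2 −1.25; at YKL-5-124 24 h, NARS2 0.066; between compounds at 4 h, EARS2 −0.016 and NARS2 −0.048; between compounds at 24 h, VARS −0.63, WARS −0.78, LARS −0.80, CARS2 −1.24, RARS2 −1.76 and IARS2 −2.44; and for the interaction MARS2 −0.30, VARS −0.56 and WARS −0.75. Under library totals RARS2 was −0.044 and CARS2 −0.20 at THZ1 24 h, and RARS2 −0.29 and IARS2 −0.94 between compounds at 24 h. Over all named genes and settings, 749 values kept their direction and side of the threshold, 47 lost the call and 24 changed sign.

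Leaving out each library in turn gave 11 to 12 higher and 3 to 5 lower calls at THZ1 4 h, 11 to 12 and 20 to 23 at THZ1 24 h, 0 and 0 at YKL-5-124 4 h, 0 and 10 to 13 at YKL-5-124 24 h, 6 to 11 and 2 to 5 between compounds at 4 h, 12 to 13 and 16 to 20 at 24 h, and 12 and 14 to 19 for the interaction. The fewest lower calls at THZ1 4 h came without THZ1 4 h replicate 2. Between compounds at 4 h, 2 lower calls were left without THZ1 4 h replicate 2 and 3 without THZ1 4 h replicate 3 or YKL-5-124 4 h replicate 1, and 6 higher ones without YKL-5-124 4 h replicate 2. The cytosolic minus mitochondrial median ranged from 0.14 to 0.36, 0.82 to 1.03, 0.00883 to 0.061 and −0.15 to −0.089 in the 4 comparisons with DMSO. With the replicate number as a block, 13 members were called higher and 6 lower at THZ1 4 h, 11 and 21 at THZ1 24 h, and 0 and 17 at YKL-5-124 24 h. No count moved by over 1.5 times under the block, and 5 of 15 libraries correlated best with their own number in every group. These 5 are replicate 1 of each group, whose correlations were 0.23 to 0.53 in all 6 comparisons, whereas those of replicate 2 were −0.40 to 0.53 and of replicate 3 −0.47 to 0.24. This is a hint from the data that the replicate 1 libraries share something, not from the design. The slope of log2 level on log2 gene length, relative to the group mean, was −0.103 to −0.0399 in replicate 1 libraries. It was −0.0379 to 0.0780 in the other libraries, where YKL-5-124 24 h replicate 2 and DMSO replicate 3 were negative. Whether length explains the correlations was not tested. Low counts limit PARS2 and left SARS2 untested.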
